A study of Mus musculus with 2 samples.

Results

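The forkhead genes encode transcription factors that bind DNA through a shared winged helix fold, and 40 of them lie outside the Foxa group and were described here. They were chosen as every gene symbol of the form Fox, a letter from b to s and a number, without Foxj1, among the 23284 symbols in the count files. RNA-seq was run on GFP-positive cells sorted from whole e15.5 pancreata of NGN3-EGFP mice, whose strain is given as mixed and C57BL6, in 2 libraries of 1 group (replicates 1 and 2). Neurog3 (NGN3) starts the endocrine programme of the pancreas, and the series' title calls these cells endocrine progenitors. The labels do not say how the reporter was made, whether embryos were pooled, or whether different litters gave the replicates, and their spread may thus be technical. Each library averages over its sorted cells. No other condition was at hand, so the comparisons below are among forkhead genes and between the libraries.

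Forkhead subfamilies are named by letter and differ outside the DNA-binding fold. FoxO factors are held out of the nucleus when insulin and growth factor signals activate the kinase AKT, and they act on stress resistance, cell cycle exit and metabolism; Foxo1 has been studied most in mouse beta cells. FoxK factors act on autophagy and glycolysis, FoxP factors are dimerising repressors that in the mouse act in alpha cells among other cell types, and Foxm1 drives genes of cell division. Many of the others mark single tissues, such as Foxf1 and Foxl1 in gut mesenchyme, Foxd3 in neural crest, Foxn1 in the thymus and Foxp3 in regulatory T cells.

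The family divided into genes with reads in both libraries and genes with none. Of the 40 genes, 13 were at 1 CPM (TMM-scaled counts per 1000000 reads) or more in both libraries, or 32.5%, against 45.7% of all symbols. No read was counted in either library for 21 of them, or 52.5%, against 34.9% of all symbols. The other 6 had reads but did not reach 1 CPM in both. The 13 genes belonged to 6 of 18 subfamilies (J, K, M, N, O and P), and both FoxJ genes of the set, both FoxK genes, Foxm1 and all 4 FoxO genes were among them. In pooled cells, fewer cells of a type and less RNA per cell cannot be told apart.

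**Figure D1:**
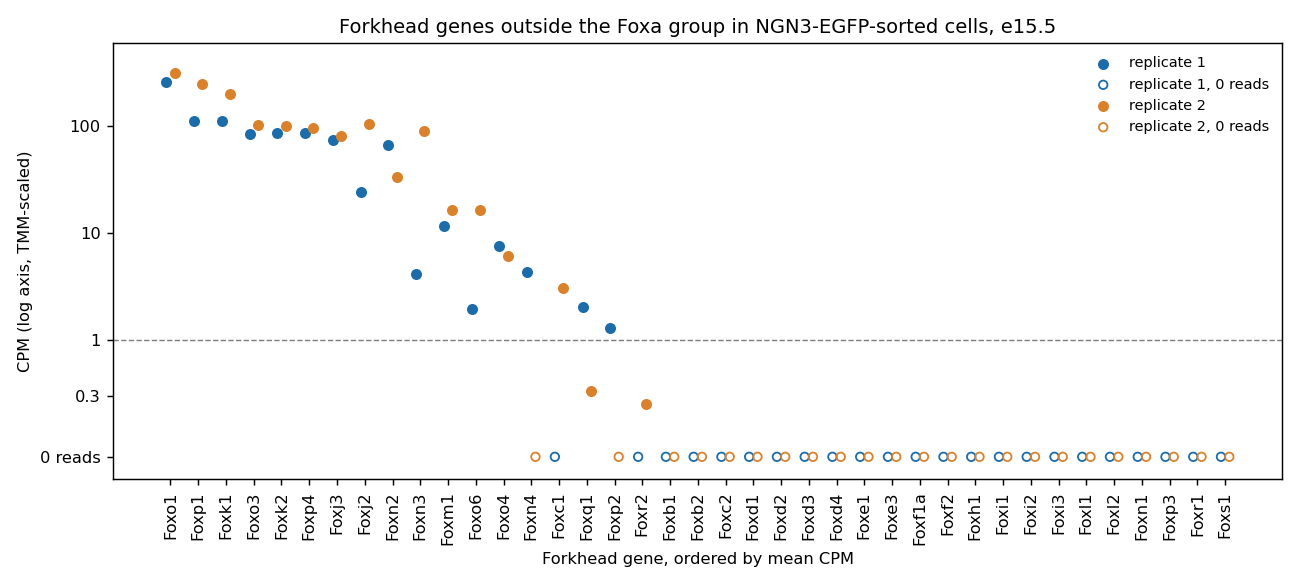
CPM of 39 of the 40 forkhead genes in each library on a log axis, ordered by mean, with open circles at the bottom for genes with 0 reads and a dashed line at 1 CPM. The 13 genes on the left are above the line in both libraries, and the 21 on the right have open circles in both.

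The start sites of the detected genes held, by the median, more CG dinucleotides, the main sites of DNA methylation, than those of the genes without reads, and 4 promoters are shown for this reason. Each runs from 250 bases before to 50 after the start given by RefSeq on GRCm38.p6, 5′ to 3′ on the gene's strand, with CG in capitals. Foxo1 (chr3:52268087-52268386, plus strand, 31 CG) was the most abundant of the 40 by CPM. Foxk2 (chr11:121259737-121260036, plus strand, 59 CG) had the most CG of the detected genes with an entry. Foxi3 (chr6:70956356-70956655, plus strand, 31 CG) and Foxi2 (chr7:135410117-135410416, plus strand, 5 CG) had the most and the fewest among the genes with no read.
Foxo1: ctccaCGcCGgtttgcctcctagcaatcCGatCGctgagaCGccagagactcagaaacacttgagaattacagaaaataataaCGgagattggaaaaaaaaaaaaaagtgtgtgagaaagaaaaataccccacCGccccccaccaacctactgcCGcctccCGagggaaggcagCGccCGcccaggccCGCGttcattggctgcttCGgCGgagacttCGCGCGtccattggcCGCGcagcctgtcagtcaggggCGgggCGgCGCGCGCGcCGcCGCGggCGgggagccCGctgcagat
Foxk2: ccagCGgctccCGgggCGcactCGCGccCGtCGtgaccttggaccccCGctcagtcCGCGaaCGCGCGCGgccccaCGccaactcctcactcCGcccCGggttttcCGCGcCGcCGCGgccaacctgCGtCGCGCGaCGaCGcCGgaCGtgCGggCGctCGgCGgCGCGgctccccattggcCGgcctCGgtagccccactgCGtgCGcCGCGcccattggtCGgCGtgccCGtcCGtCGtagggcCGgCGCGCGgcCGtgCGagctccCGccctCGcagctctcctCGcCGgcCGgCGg
Foxi3: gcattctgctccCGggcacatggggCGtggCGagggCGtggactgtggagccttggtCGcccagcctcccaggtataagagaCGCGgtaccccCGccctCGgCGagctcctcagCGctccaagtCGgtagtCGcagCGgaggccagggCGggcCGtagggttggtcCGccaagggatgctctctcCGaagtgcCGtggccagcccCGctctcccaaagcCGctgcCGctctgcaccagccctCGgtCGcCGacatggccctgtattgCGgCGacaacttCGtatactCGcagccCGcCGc
Foxi2: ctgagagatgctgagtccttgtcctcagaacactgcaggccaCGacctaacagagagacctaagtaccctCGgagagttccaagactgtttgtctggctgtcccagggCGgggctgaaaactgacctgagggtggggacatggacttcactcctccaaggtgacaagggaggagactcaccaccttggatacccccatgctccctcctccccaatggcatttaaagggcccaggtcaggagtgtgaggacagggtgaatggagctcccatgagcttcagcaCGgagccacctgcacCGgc

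A promoter was found by symbol for 25 of the 40 genes. Taking the highest CG number where a gene had several starts, the 8 detected genes had a median of 36 CG in 300 bases, and the 14 genes with no read had a median of 13.5. The detected genes ran from 6 (Foxn3) to 59 (Foxk2), and 7 of 8 lay above the median of 7 over all promoters. The genes without reads ran from 5 to 31, and 12 of 14 lay above that median, so the promoter of Foxi3 held as many CG as that of Foxo1. The same order held over all genes, with a median of 23 CG for 7687 detected genes and 3 for 5141 genes without a read. CG-rich starts were found among genes without reads too, with 27 for Foxf2 and Foxl2, 26 for Foxd2 and 25 for Foxd3.

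Exon number, counted as the most exons in any coding transcript of the basic GENCODE set, also went with detection. Of 13 forkhead genes with 1 exon, 0 reached 1 CPM in both libraries, against 17.8% of all such coding genes. Of 8 with 2 exons, 1 did (Foxo6), against 19.5%. Of 19 with 3 or more exons, 12 did, or 63.2%, against 55.9%. Among the 13 single-exon genes only Foxc1 and Foxq1 had any read. These shares are descriptions only, since related genes share their exon structure.

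**Figure D2:**
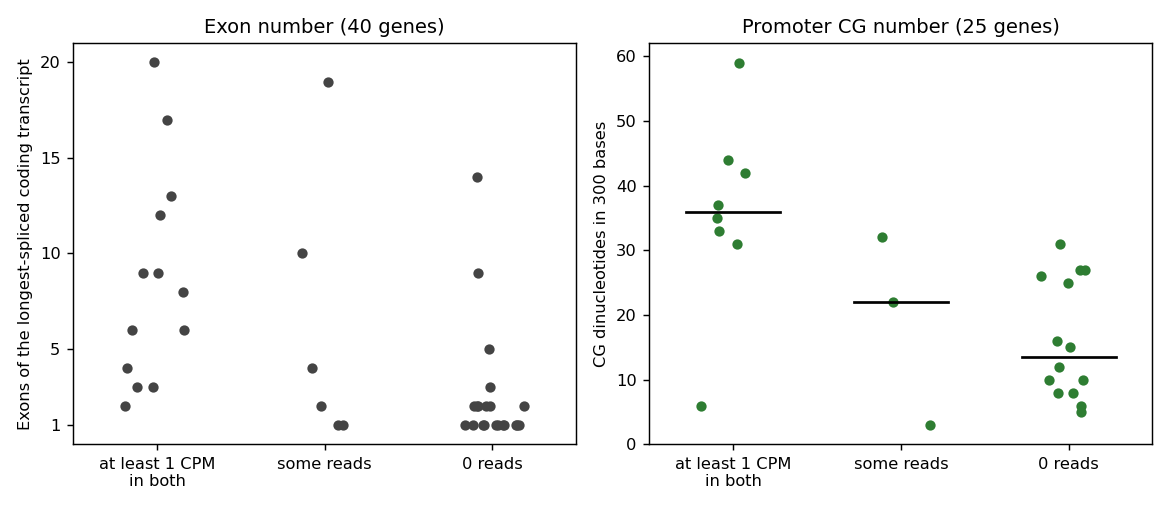
Exon number of the 40 genes (left) and CG dinucleotides per 300-base promoter of the 25 genes with a RefSeq entry (right, bars at the median), split by detection, with points spread sideways for legibility. The detected genes have 2 to 20 exons and a median of 36 CG, and the genes with 0 reads include 11 with a single exon and have a median of 13.5 CG.

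The FoxO subfamily, the effectors of insulin and AKT signalling, took the largest share of forkhead reads. It held 37.6% of the summed forkhead CPM in replicate 1 and 31.1% in replicate 2, or 30.1% and 27.0% per kb of exon. FoxP came next per kb, at 24.1% and 25.7%, with 2 detected genes against 4 of FoxO. Foxo1 had 3239 reads in replicate 1 and 3835 in replicate 2, which is 260.4 and 317 CPM and a mean of 289 ± 40.1 CPM (SD, n = 2). Per kb of exon, the scale on which genes can be compared, it stood at 30.0 and 36.6 CPM per kb. It was the highest of the 40 genes in each library, at percentile 81.7 of the 10533 detected genes with a length.

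Foxo3, the FoxO factor tied to quiescence and longevity, followed within the subfamily. It had 1052 and 1244 reads, or 84.6 and 102.8 CPM, with a mean of 93.7 ± 12.9 CPM (SD, n = 2). The ratio of Foxo1 to Foxo3 per kb was 2.63-fold in replicate 1 and 2.63-fold in replicate 2, the closest of 5 pairs of related genes examined. Foxo4 was low in both libraries, at 95 and 73 reads, or 7.64 and 6.03 CPM. Foxo6, which in the mouse is best known from the brain, had 24 and 198 reads, or 1.93 and 16.4 CPM, so its libraries lay 8.48-fold apart. In the annotation 674 of the 8665 exon bases of Foxo1 overlap a gene on the opposite strand, and whether reads were counted by strand is not stated. Among the other detected genes, Foxp1 shares 435 exon bases and Foxm1 144 with genes on the same strand. Foxj2 shares 160 with genes on either strand.

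FoxP and FoxK genes came next. Foxp1 had 1395 and 3019 reads, or 112 and 249.6 CPM, and was 2.23-fold higher in replicate 2. Foxp4 had 1073 and 1173 reads, or 86.3 and 96.97 CPM, and moved by 1.12-fold. Their order per kb depended on the library: Foxp1 was at 14.3 and 31.8 CPM per kb and Foxp4 at 21.4 and 24.0. Foxp2, the third gene of the mouse alpha cell set, had 16 reads in replicate 1 and 0 in replicate 2. Foxp3 had none in either. A count of 0 allows 3 reads per library, which is 0.248 CPM in replicate 2. Against that limit Foxp2 was 5.19-fold higher in replicate 1, without the counting error of its 16 reads. With that error, the upper 95% limit of its log2 ratio of replicate 2 over replicate 1 was -1.91.

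Foxk1 had 1409 and 2454 reads, or 113 and 202.9 CPM, and Foxk2 had 1073 and 1215 reads, or 86.3 and 100.4 CPM. Per kb the pair was close and changed order, with Foxk1 at 14.9 and 26.7 CPM per kb and Foxk2 at 17.2 and 19.97. Together the FoxK genes held 21.2% and 21.3% of forkhead CPM, nearly the same share in both libraries. The FoxP genes held 21.2% and 24.4%.

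**Figure D3:**
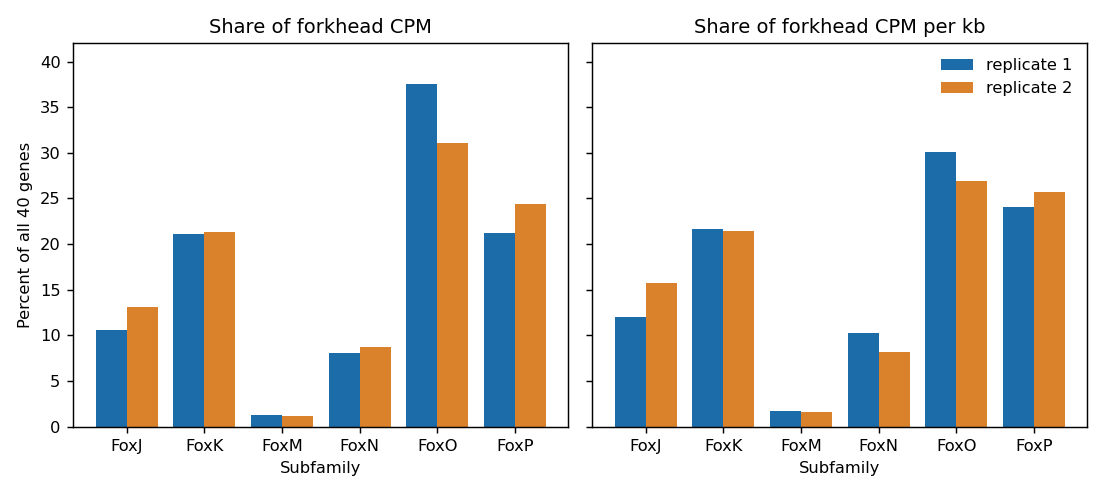
Share of the summed CPM (left) and of the summed CPM per kb of exon (right) of the 40 forkhead genes held by the 6 subfamilies with a detected gene, as bars per library, with FoxJ without Foxj1. FoxO has the tallest bar in both panels, at 37.6% and 31.1% by CPM and 30.1% and 27.0% per kb, and FoxM the lowest.

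In the FoxJ and FoxN subfamilies the order of the genes turned over between the libraries. Foxj3, which in mouse muscle acts on Mef2c, had 936 and 973 reads, or 75.2 and 80.4 CPM. Its relative Foxj2 had 304 and 1283 reads, or 24.4 and 106 CPM, a 4.34-fold difference. Foxj3 was thus above Foxj2 in replicate 1 and below it in replicate 2, also per kb.

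Foxn2 and Foxn3 moved in opposite directions. Foxn2 had 840 reads in replicate 1 and 405 in replicate 2, or 67.5 and 33.5 CPM. Foxn3, known in human cells as a checkpoint suppressor, had 52 and 1092 reads, or 4.18 and 90.3 CPM, a 21.6-fold difference. Foxn2 was 25.7-fold above Foxn3 per kb in replicate 1 and at 0.589 of its level in replicate 2. The summed FoxN share of forkhead CPM was nonetheless 8.06% and 8.70%. Foxn4 is a factor of retinal and spinal cord progenitors in the mouse. It had 54 reads in replicate 1, or 4.34 CPM, and 0 in replicate 2. By the limit of 3 reads it was 17.5-fold higher in replicate 1. With the counting error of its reads, the upper 95% limit of its log2 ratio of replicate 2 over replicate 1 was -3.78. Foxn1 had no read.

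Foxm1, the driver of genes of cell division, had 146 and 197 reads, or 11.7 and 16.3 CPM, and a mean of 14.0 ± 3.22 CPM (SD, n = 2). Per kb it was at 2.52 and 3.50 CPM per kb, at percentile 15.9 of detected genes. By the mean only Foxo4 was lower per kb among the 13 detected genes, while in replicate 1 Foxn3 and Foxo6 were lower too.

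**Figure D4:**
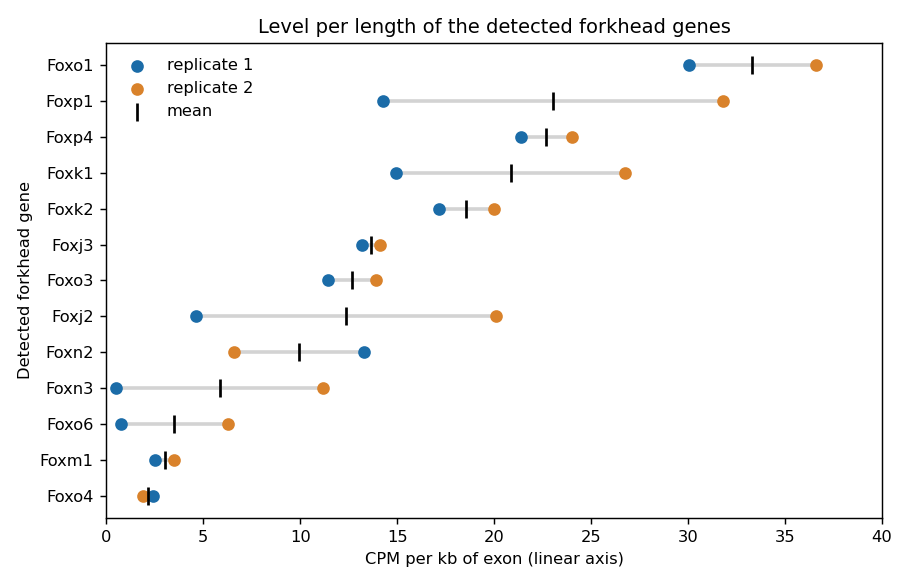
CPM per kb of exon of the 13 detected forkhead genes in replicates 1 and 2, with the mean as a black tick, on a linear axis. Foxo1 is highest in both libraries at 30.0 and 36.6, and the lines joining the libraries of Foxp1, Foxj2 and Foxk1 are the longest.

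The order of the 13 detected genes per kb, by the mean, was Foxo1, Foxp1, Foxp4, Foxk1, Foxk2, Foxj3, Foxo3, Foxj2, Foxn2, Foxn3, Foxo6, Foxm1 and Foxo4. Of the 12 neighbouring pairs in it, 10 had ranges over the 2 libraries that overlapped. The exceptions were Foxk2 above Foxj3 and Foxm1 above Foxo4. Overlap over 2 libraries does not show that neighbours were alike. Foxo1 lay above Foxp1, and Foxj3 above Foxo3, in both libraries although their ranges overlapped. Of all 78 pairs, 61 had the same order in both libraries. Among all detected genes the 13 ranged per kb from percentile 10.8 (Foxo4) to 81.7 (Foxo1), with a median of 53.8, and 8 of them lay above the median gene. An exact permutation over 2 libraries reaches p = 0.5 at best, so orders were not tested.

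The remaining genes with reads were at 1 CPM or more in at most 1 library. Of these 6, 5 had reads in 1 library only, Foxq1 being the exception. Foxc1, a factor of mesenchyme, vessels and the eye, had 0 reads in replicate 1 and 37 in replicate 2, or 3.06 CPM. By the limit of 3 reads it was 12.7-fold higher in replicate 2. With the counting error of its reads, the lower 95% limit of its log2 ratio of replicate 2 over replicate 1 was 3.29. Foxq1, known from the hair of satin mice, had 25 and 4 reads, or 2.01 and 0.331 CPM. Foxr2 had 0 and 3 reads. For Foxq1, 3200 of 4843 exon bases overlap an antisense gene and 33.9% of its 25-base words are its own, which leaves its count uncertain. For the 13 detected genes the share of own words was 91.5% to 100%.

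The 21 genes with no read were Foxb1, Foxb2, Foxc2, Foxd1, Foxd2, Foxd3, Foxd4, Foxe1, Foxe3, Foxf1a (now Foxf1), Foxf2, Foxh1, Foxi1, Foxi2, Foxi3, Foxl1, Foxl2, Foxn1, Foxp3, Foxr1 and Foxs1. They include the gut mesenchyme factors Foxf1 and Foxl1, the thyroid factor Foxe1, the lens factor Foxe3, the ovary factor Foxl2 and Foxi1 of inner ear and kidney ion-transporting cells. At 3 reads, the upper limit of a count of 0 was 0.241 CPM in replicate 1 and 0.248 in replicate 2. That limit covers counting error only, since reads are not independent molecules.

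The cell types of the sort were checked with marker lists, and libraries held 12495143 and 12043734 reads. All 8 endocrine markers were detected, led by Chgb, Insm1 and Nkx2-2, as were 7 of 7 proliferation markers (Mcm3, Mcm4, Top2a). Of 7 ductal markers 6 were detected (Krt7, Muc1, Sox9), and of 7 acinar markers 5 (Ctrb1, Cpa1, Rbpjl). The endocrine list summed to 10083 and 10033 CPM in replicates 1 and 2. The acinar list summed to 1597 and 1200 CPM, of which Ctrb1 held 1321 and 986, and the ductal list to 674 and 620 CPM. The 12 mesenchymal markers, led by Col1a2, Vim and Col1a1, added up to 442 and 143 CPM in replicates 1 and 2, and 5 were detected in both. The 10 endothelial markers, led by Cdh5, Eng and Sox17, summed to 29.4 and 14.1 CPM, and 1 was detected in both, while Pecam1, Kdr, Tek and Flt1 were below 1 CPM in both. The immune markers, led by Laptm5, Cd68 and Csf1r, summed to 56.5 and 11.7 CPM. Only 2 of these 8 were detected in both, Laptm5 at 37.9 and 3.55 CPM and Cd68 at 18.4 and 7.69 CPM. Csf1r had 1 and 4 reads. The summed level was 251 and 114 CPM for neural crest and enteric neuron (Ret, Erbb3) and 0.241 and 2.81 CPM for erythroid markers (Alas2, Klf1). Sox10, which defines neural crest cells, was below 1 CPM in both. Foxc1 had its reads in replicate 2, where the mesenchymal and endothelial sums were lower. Single markers went both ways: Sox17, Esam and the mesenchymal Barx1 had no reads in replicate 1 and measured 6.61, 4.46 and 4.79 CPM in the other library, while Cdh5 was at 15.6 and 0.165 CPM and Eng at 13.5 and 1.90 CPM. The part of these cells in the level of Foxc1 was not tested.

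Differences between the 2 libraries were common in the family, as they were in all genes. The forkhead reads added up to 943 and 1423 CPM in replicates 1 and 2, a mean of 1183 ± 339 CPM (SD, n = 2). A two-sided exact binomial test with Benjamini-Hochberg adjustment over 13416 genes with at least 10 reads compared these libraries, not conditions, and measures counting error alone. Of 17 forkhead genes tested 15 differed, or 88.2%, against 85.8% of all genes. Of the 17, 11 were higher in replicate 2 (64.7%, against 44.1% of all genes) and 4 in replicate 1 (23.5%, against 41.7%). The 4 were Foxn2, Foxn4, Foxp2 and Foxq1. A difference of over 2-fold as well was found for 9, or 52.9%, against 47.8%.

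Forkhead genes were also set beside all genes of like level, with 8 forkhead genes or fewer in each band, too few to tell the shares apart. From 100 to 1000 CPM, 1 of 3 (Foxp1, not Foxo1 or Foxk1) differed over 2-fold, against 12.2% of all genes there. From 10 to 100 CPM, 3 of 8 did (Foxj2, Foxn2 and Foxn3), against 42.9%. From 1 to 10 CPM, 4 of 5 did (Foxc1, Foxn4, Foxo6 and Foxq1), against 74.0%. By the exact binomial test the adjusted p was 1.74e-143 for Foxp1, 1.86e-147 for Foxj2, 2.17e-32 for Foxn2 and 6.56e-36 for Foxo6. Foxn3 had the largest ratio of the 13 detected genes, with an adjusted p of 1.42e-258 by the exact binomial test and a 95% counting interval of 4.03 to 4.86 on the log2 scale. For Foxj3 and Foxo4 the test missed the threshold, with adjusted p of 0.166 and 0.159 by the exact binomial test. Their log2 ratios of replicate 2 over replicate 1 were 0.10 (interval -0.03 to 0.23) and -0.34 (-0.80 to 0.12).

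**Figure D5:**
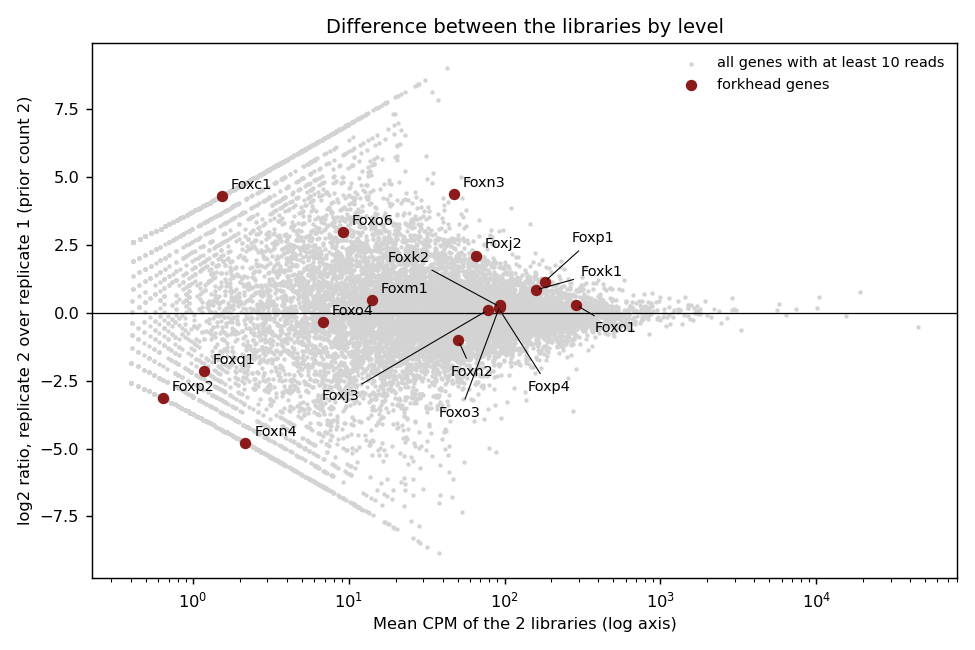
Log2 ratio of replicate 2 over replicate 1 (prior count of 2) against mean CPM on a log axis for the 17 forkhead genes with at least 10 reads (red) and all 13416 such genes (grey). Foxo1, Foxo3, Foxk2, Foxp4 and Foxj3 lie close to 0, and Foxn3 lies far above it near the edge of genes of its level.

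All 14 genes of insulin receptor and AKT signalling were detected. Beside this and each list below stand 45.7% of all symbols and 55.9% of coding genes with 3 or more exons. Activity of the forkhead factors was not tested. Pdpk1, the kinase that activates AKT, led by CPM at 529 and 476 CPM. Pik3r1, a regulatory subunit of PI3-kinase, was at 424 and 290.4 CPM, and Igf1r, the receptor of insulin-like growth factors, at 331 and 316 CPM. By the exact binomial test 4 of the 14 were higher in replicate 2, against 44.1% of all genes, 8 were higher in replicate 1, against 41.7%, and 2 did not pass. Akt1 was higher in replicate 2 and Akt2 higher in replicate 1. Of 13 genes whose proteins bind or modify FoxO factors 12 were detected. The 14-3-3 genes Ywhae, at 2104 and 2304 CPM, and Ywhaz, at 1724 and 1786 CPM, led by CPM. The acetyltransferase gene Crebbp followed at 633 and 475 CPM. Of these 13, 7 were higher in replicate 2 and 5 in replicate 1, against the same 44.1% and 41.7%, and 1 did not pass.

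Of 17 known FoxO target genes 12 were detected, led by CPM by Gadd45a, a growth arrest gene, at 242 and 189 CPM, Cat (catalase) at 206 and 219 CPM and Cited2 at 138 and 205 CPM. The 5 with no read in either library were Pck1, G6pc and Igfbp1, targets in liver, Trim63, a target in muscle, and Tnfsf10. Of the 12 tested, 7 were higher in replicate 2, 2 in replicate 1 and 3 did not pass, against 44.1% and 41.7% of all genes. Bcl2l11, which promotes cell death, was at 182 and 50.7 CPM and Sod2, a superoxide dismutase, at 85.5 and 180 CPM, so called members of the list went both ways by the exact binomial test.

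All 6 cofactor genes of Foxm1 were detected, led by CPM by Rbbp4 at 134 and 108 CPM, Lin52 at 45.7 and 19.3 CPM and Lin37 at 39.1 and 16.7 CPM, and 1 was higher in replicate 2 and 4 in replicate 1, against 44.1% and 41.7% of all genes, while 1 did not pass. Of 15 targets 10 were detected, with a list median of 7.23 and 5.21 CPM, against 22.8 and 23.1 CPM for the 13416 genes tested. The highest by CPM were Cks1b at 27.9 and 26.3 CPM, Skp2 at 35.1 and 13.6 CPM and Cenpf, a kinetochore gene, at 6.27 and 25.7 CPM. Of the 15, 4 were higher in replicate 2 and 6 in replicate 1, against 44.1% and 41.7%, and 5 did not pass.

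Partners of the other subfamilies were detected as well. All 8 corepressor genes of FoxP factors were, led by CPM by Chd4 at 548 and 552 CPM, Hdac2 at 320 and 245 CPM and Gatad2b at 188 and 152 CPM, with 3 higher in replicate 2 and 4 in replicate 1, against 44.1% and 41.7% of all genes, and 1 that did not pass. All 7 FoxK partners were, led by CPM by Hcfc1 at 515 and 476 CPM, Sin3a at 214 and 194 CPM and Asxl2 at 99.7 and 196 CPM, with 3 higher in replicate 2 and 3 in replicate 1, against the same shares of 44.1% and 41.7%, and 1 that did not pass. Of the Nodal pathway in which Foxh1 acts, 6 of 8 genes were detected, led by CPM by Smad2 at 272 and 218 CPM, Smad4 at 107 and 69.5 CPM and the receptor gene Acvr1b at 82.6 and 63.7 CPM. Nodal, its coreceptor gene Tdgf1 and Foxh1 had no read. Of the 6 tested, 1 was higher in replicate 2 and 5 in replicate 1, against 44.1% and 41.7% of all genes.

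The Foxa genes, which were left out of the 40, gave the scale within the wider family. Foxa2 was at 36.0 and 33.9 CPM per kb, above Foxo1 in replicate 1 and below it in replicate 2, and Foxa3 was at 40.8 and 12.3. Foxa1 had 25 and 0 reads and Foxj1, a factor of motile cilia, had 4 and 0.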

How the data were processed

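Raw read counts per gene symbol were deposited by the authors as whole numbers, 1 file per library. Tools listed in the submitters' processing notes, without roles, are TopHat2 2.0.4, Cufflinks 2.0.2, DESeq, cutadapt and FastQC, with build mm9; how reads were counted, and on which annotation and strand, is not stated there. Counts were scaled to CPM with TMM factors (0.996 and 1.00) from edgeR 4.0.16 in R 4.3.3. Detected means at least 1 CPM in both libraries. The two-sided exact binomial test used the scaled library sizes, a minimum of 10 reads and a threshold of 0.05. In simulated counts for 13416 genes it called 81 of 100 genes made to differ 2-fold, 96 of 100 made to differ 4-fold, and 9 of 13216 left alike. These counts varied by counting error alone, as the test assumes, so few calls among genes left alike were built in. They do not show how the test behaves on real replicates, where it called 85.8% of genes. Intervals are exact Clopper-Pearson intervals at 95% and cover counting error only.

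Exon lengths, exon numbers, overlaps and 25-base words came from the basic set of GENCODE M21 on GRCm38, which is not the build of the counts, so no coordinates were joined; 22782 symbols, or 97.8%, were matched, Foxf1a by its synonym. Promoters came from RefSeq on GRCm38.p6. The members and lists were chosen with earlier results of these data known. Some genes that meet the naming rule, 1 forkhead gene among them, are not reported here but stay in the counts and sums. By that rule, each forkhead gene, the 3 highest of each list by mean CPM and pathway genes under 1 CPM in both libraries are named; Akt1, Akt2, Bcl2l11, Sod2, the additional marker genes and the promoters shown were chosen after their values were seen. Alternatives tried were plain totals, DESeq2 1.42.0 size factors, totals without the 10 most abundant genes, other detection limits and count filters, other lengths and leaving out each replicate.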

Additional observations from a re-analysis of the deposited data

How the results depend on the processing

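No paired analysis was possible because there is only 1 group. Of 85 alternative values that used both libraries, 71 stayed within the replicate spread or within 1.5 times the count. Leaving out 1 of 2 replicates gives the other library alone, which by construction lies within 1 SD of the mean and so shows no stability of a level: Foxn3 was at 4.18 to 90.3 CPM and Foxo6 at 1.93 to 16.4 CPM. The count of detected forkhead genes was 14 to 16 when each replicate was left out. Asking for a 2-fold difference as well lowered the forkhead genes that differed between the libraries from 15 to 9, and those higher in replicate 2 from 11 to 5. With at least 100 reads, 1 was higher in replicate 1 instead of 4, since fewer genes were tested. At a limit of 5 CPM, 6 of the Foxm1 targets were detected instead of 10.

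The share of Foxo1 in the summed forkhead level per kb, 18.5% on average, was 21.8% with exons of the full annotation, 24.9% without length and 24.5% by coding length. The log2 ratio of Foxo1 to Foxo3, 1.40, was 1.43, 1.62 and 1.75 in the same order. Foxp1 against Foxp4, at -0.09, turned to 0.87 without length and 0.83 by coding length. Foxk1 against Foxk2, at 0.11, was 0.70 without length, and Foxj2 against Foxj3, at -0.50, turned to 0.43 with the full annotation. Leaving out each replicate gave -0.58 to 0.41 for Foxp1 to Foxp4 and -0.20 to 0.42 for Foxk1 to Foxk2. It gave -1.51 to 0.51 for Foxj2 to Foxj3 and -0.76 to 4.68 for Foxn2 to Foxn3 (1.96 on average). Per kb of basic exons, the order within these 4 pairs thus depended on the library. By coding length Foxp1 to Foxp4 was 0.33 and 1.32 in replicates 1 and 2, and Foxk1 to Foxk2 0.23 and 0.85. Both pairs also kept 1 order without length. With the full annotation Foxp1 to Foxp4 was -1.10 and -0.12, while Foxk1 to Foxk2 changed order. The FoxJ and FoxN pairs changed order on every length. Depth limits the genes with a mean under 10 CPM most, where a library held at most 198 reads of a forkhead gene (Foxo6 in replicate 2).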

Other observations

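Forkhead genes with at most 1 coding gene between them had few or no reads, and each of them has 1 or 2 exons. Of all 13 forkhead genes with 1 exon 0 were detected, and of all 8 with 2 exons 1 was. The part of position in this was not tested. Foxq1, Foxf2 and Foxc1 follow each other on chromosome 13 of the GENCODE annotation with 0 coding genes between them, and had 25 and 4, 0 and 0, and 0 and 37 reads in replicates 1 and 2. Foxf1a, Foxc2 and Foxl1 on chromosome 8, with 1 and 0 coding genes between them, had no read, and nor had Foxd2 and Foxe3 on chromosome 4. On the same chromosome Foxj3 and Foxo6 are separated by 4 coding genes and lie on opposite strands, with 936 and 973 reads for Foxj3 and 24 and 198 for Foxo6.

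Promoters of the 25 forkhead genes with an entry were searched on both strands for GTAAACA and ATAAACA, letters bound by forkhead factors. GTAAACA was in 0 of their 28 promoters and in 3.65% of all 32851 promoters of 300 bases. ATAAACA was in 3, at starts of Foxp1 and Foxp3, and in 4.60% of all promoters. A match or its absence describes only these letters in this window.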
